A study of Homo sapiens with 4 samples.

Results

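The genes described here are the hnRNP proteins, the SR proteins and 8 further families of RNA-binding splicing regulators, as measured in H9 human embryonic stem cells. They were taken from the expression table by symbol: every row named HNRNP or SRSF with its suffix, RBFOX1 to RBFOX3, PTBP1 to PTBP3, MBNL1 to MBNL3, ESRP1 and ESRP2, CELF1 to CELF6, TRA2A and TRA2B, QKI, and ELAVL1 to ELAVL4. Of 60671 rows, 185 matched. The 95 symbols in which a digit is followed by P and digits, the names of gene copies such as HNRNPA1P48, were left out, and 90 rows remained. They comprised 54 HNRNP symbols, 12 SRSF symbols and 24 symbols of the other families. The 54 HNRNP symbols included 29 pseudogene symbols, such as HNRNPCP1, and 5 symbols of retrogene-like copies, HNRNPCL1 to HNRNPCL4 and HNRNPA1L2, so that 56 rows were ordinary genes.

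The study asked what CFIm25 does in human embryonic stem cells. CFIm25, encoded by NUDT21, is the RNA-binding subunit of cleavage factor I, which acts in the cleavage and polyadenylation of pre-mRNA. H9 is an established human embryonic stem cell line. Poly(A) RNA was sequenced from 2 libraries of control H9 cells and from 2 libraries of H9 cells labelled CFIm25 KO with 3Flag-CFIm25 overexpression, called KO+OE below. The control label states no treatment, and the study's text speaks of mock controls for this RNA-seq, which were clones of H9 cells transfected with an empty CRISPR vector. The edit was made with CRISPR/Cas9 and left cells with small deletions near the start of the protein and a low protein level, and the cells were kept as clonal lines. The 3Flag-tagged CFIm25 cDNA was brought in by lentivirus. By the study's text this was done in mutant cells of a single clone. Differences between the groups therefore cannot be told apart from differences between clones. The series title speaks of a knockdown and the sample titles of a knockout. Edited cells without the added cDNA were not analysed here, so the comparison was between the re-expressing line and control cells. The labels do not say that the 2 libraries of a group came from separate cultures, so p-values measure the spread between these libraries, which may be technical.

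hnRNP proteins coat nascent pre-mRNA, and many of them bind exonic or intronic silencers and keep splice sites from being used. SR proteins carry RNA-recognition motifs and a domain rich in arginine and serine, bind exonic enhancers, and help recruit the spliceosome. RBFOX, MBNL, CELF, PTBP, ESRP, QKI, TRA2 and ELAVL proteins bind their own short motifs and set the inclusion of tissue-specific exons; ESRP proteins mark epithelial cells, and MBNL proteins are known as repressors of splicing patterns typical of embryonic stem cells.

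The deposited values carry no unit and were read as TPM, a level scaled to transcript length and to a common library total. On that reading, levels of different genes can be set side by side. NUDT21 itself, ENSG00000167005 on chromosome 16, was listed at 160.67 TPM (replicate 1) and 152.2 TPM (replicate 2) in control, and at 162.09 TPM and 156.6 TPM in KO+OE. The groups overlapped, and the log2 fold change of KO+OE over control was 0.03 with a 95% interval of -0.09 to 0.14. Reads of the edited gene and of the added cDNA cannot be told apart in this value, so it checks neither the edit nor the re-expression. The 4 libraries summed to between 986853 and 987078 TPM, and mitochondrial genes took 21.0% and 21.1% in control against 21.6% and 22.1% in KO+OE. All 8 pluripotency markers examined averaged 1 TPM or more, with summed levels of 3286 to 3322 TPM. Neuronal markers summed to 5.62 to 7.21 TPM with 2 of 5 at 1 TPM or more on average, and no mesoderm or endoderm marker reached 1 TPM on average. Of 3 neural progenitor markers 1 reached it, OTX2, at 8.77 to 11.32 TPM over the libraries. Of 4 fibroblast markers 2 reached it, COL1A1 at 53.86 to 55.6 TPM and COL1A2 at 12.99 to 14.47 TPM. Markers of other lineages were therefore not all low. No counts were given, so the depth of the libraries is unknown.

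Some hnRNP genes have copies so close in sequence that the values of gene and copy are uncertain, while other paralogues differ widely. Coding sequences of canonical transcripts in GENCODE release 44 were aligned to measure this. HNRNPA1, on chromosome 12, encodes one of the most abundant hnRNP proteins, and HNRNPA1L2, on chromosome 13, is its retrogene-like copy. They shared 945 of 960 aligned coding bases, or 98.4%. PTBP1, on chromosome 19, encodes the polypyrimidine tract-binding protein of most cell types, and PTBP2, on chromosome 1, encodes its neuronal relative. These 2 genes shared 1051 of 1590 aligned coding bases, or 66.1%, and the GC content of the coding sequence was 60.5% for PTBP1 and 41.3% for PTBP2. HNRNPC and its copy HNRNPCL1 shared 94.8% of aligned coding bases and HNRNPH1 and HNRNPH2 87.6%, while ESRP1 and ESRP2 shared 64.2%.

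The table listed HNRNPA1 at 687.29 and 709.88 TPM in control against 716.34 and 715.11 TPM in KO+OE, and HNRNPA1L2 at 0.43 and 1 TPM in control against 0.79 and 0.75 TPM in KO+OE. How reads that match both loci were counted is not given in the sources used here, so the split between gene and copy is uncertain. The copies took little of the table in any library. The 29 pseudogene symbols kept summed to 4.45 and 3.55 TPM in control and 3.03 and 3.75 TPM in KO+OE, and the 95 names left out summed to 6.13 and 5.31 TPM in control and 6.25 and 4.30 TPM in KO+OE. Of those 95 names, 70 were listed at 0 in all 4 libraries, and the highest was HNRNPA1P48, at 3.51 and 2.56 TPM in control against 3.56 and 1.63 TPM in KO+OE.

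Of the 90 members, 45 had a mean of at least 1 TPM over the 4 libraries and were tested. These were 20 hnRNP genes, the pseudogene symbol HNRNPCP1, 11 SRSF genes and 13 genes of the other families. The 45 below 1 TPM were 28 pseudogene symbols, the 5 retrogene-like copies, SRSF12 and 11 genes of the other families, and 22 of the 45 were listed at 0 in every library. As a group the members made up 0.424% and 0.428% of all TPM in control against 0.429% and 0.423% in KO+OE, so the groups overlapped.

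Levels of the hnRNP genes were high. The median level of the tested hnRNP symbols was 52.4 TPM and that of the SRSF genes 42.3 TPM, against 16.3 TPM for the other families and 7.77 TPM for all 12319 genes tested. HNRNPC, which packages nascent RNA and binds uridine tracts, was the member listed highest, at 716.81 and 766.67 TPM in control cells, with 748.35 and 749.32 TPM in KO+OE cells. Both KO+OE values lay between the control values. HNRNPA1 stood 9.04 to 9.96 times as high as HNRNPA2B1, and HNRNPC 1.04 to 1.08 times as high as HNRNPA1, so the order of these genes was the same in every library. HNRNPC and HNRNPA1 both have close copies, and how shared reads were counted is unknown, so which of them is higher is uncertain. HNRNPK, which binds cytidine-rich tracts, was at 231.26 and 237.31 TPM in control against 241.12 and 234.09 TPM in KO+OE, with overlapping groups.

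**Figure D1:**
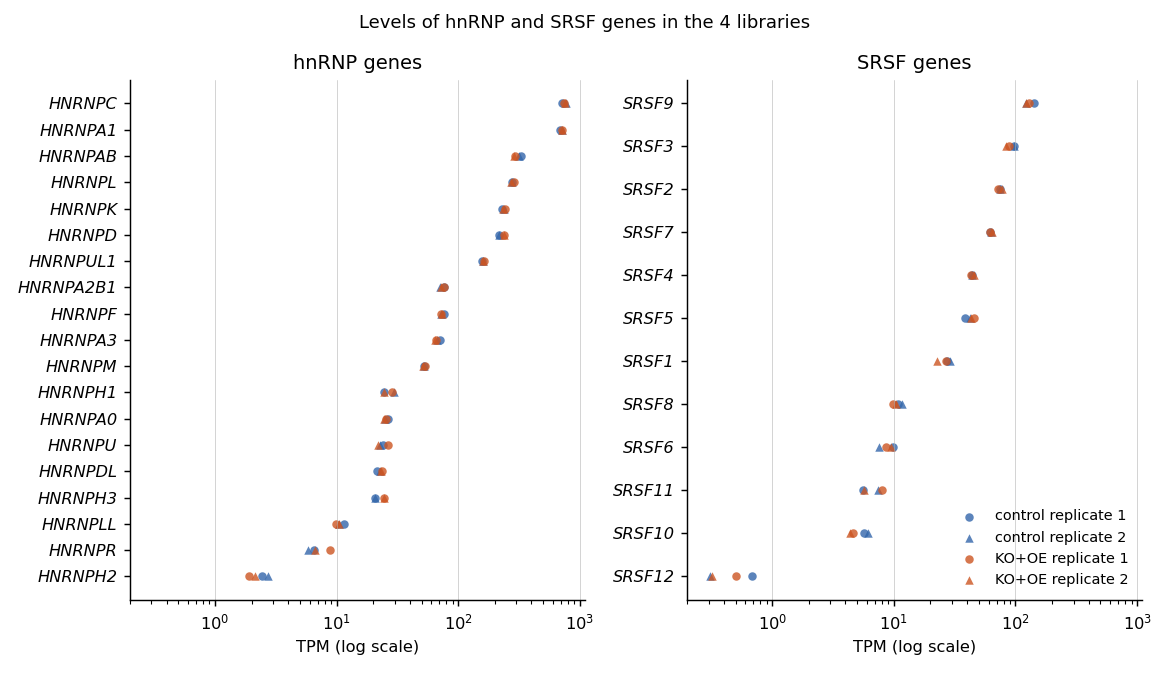
Levels in TPM, on a log axis, of 19 hnRNP genes and the 12 SRSF genes in each of the 4 libraries (circles, replicate 1; triangles, replicate 2; blue, control; orange, KO+OE), with genes in order of their mean. HNRNPUL2, listed at 0 in 1 library, is left out; HNRNPC has a mean of 745 TPM and HNRNPH2 one of 2.31 TPM, and the points of most genes lie close together beside that range.

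HNRNPL was examined by itself because the study names it as a protein that potentially interacts with CFIm25. It binds CA-rich RNA and is encoded on chromosome 19 (38836370 to 38852347, minus strand, GRCh38). The study reported that its overall binding to DNA, measured by ChIP-seq, was not apparently altered in edited cells. Those were edited cells without the added cDNA, whereas the RNA values given here compare KO+OE with control. HNRNPL stood at 275.28 and 279.39 TPM in control against 285.73 and 274.26 TPM in KO+OE. The KO+OE values lay on either side of the control values. The log2 fold change was 0.01 with a 95% interval of -0.08 to 0.10 (limma, Benjamini-Hochberg adjusted p = 0.988). The sign turned with 1 library left out, being 0.04 when KO+OE replicate 2 was dropped and -0.02 when KO+OE replicate 1 was dropped. Its paralogue HNRNPLL was at 11.55 and 10.54 TPM in control against 9.93 and 10.54 TPM in KO+OE, and HNRNPL was 23.8 to 28.8 times as high. RNA level says nothing about whether the proteins bind each other.

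No member passed the test across all genes. At a Benjamini-Hochberg adjusted p under 0.05 in limma, 0 of 45 members were called, against 0.00812% of all genes tested (1 of 12319), and the lowest adjusted p of a member was 0.928. At an unadjusted p under 0.05, 5 of 45 members (11.1%) passed, beside 5.33% of all genes tested. Of these, HNRNPH3 and HNRNPD were higher in KO+OE (2 members, 4.44%, beside 2.26% of all genes), and HNRNPAB, SRSF3 and SRSF10 were lower (3 members, 6.67%, beside 3.06% of all genes). Whether these shares differ from those of all genes was not tested. The median log2 fold change was 0.01 over the members, with 25 above 0 and 20 below, against -0.01 over all genes tested. The median size of the change, regardless of sign, was 0.05 for members and 0.08 for all genes. These sizes are not matched for level, which was higher among the members (median 26.45 TPM, against 7.77 TPM for all genes).

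HNRNPH3 (ENSG00000096746), a member of the group that binds guanosine tracts, lies on chromosome 10 (68331693 to 68343196). It was at 20.56 and 20.54 TPM in control cells, with 24.74 and 24.67 TPM in KO+OE cells. Both KO+OE libraries were above both control libraries, by 20.2% on average, and the values within a group nearly coincided. The spread on the log2 scale was 0.0013 in control and 0.0039 in KO+OE. For members from 20 to 100 TPM the medians were 0.064 and 0.062. With 2 libraries a group, such closeness does not measure precision. The log2 fold change was 0.25 ± 0.06 (SE, n = 2 per group; limma, unadjusted p = 0.00794, Benjamini-Hochberg adjusted p = 0.928). It was the one member with an unadjusted p under 0.05 in all 13 other ways of processing that were tried.

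HNRNPD (ENSG00000138668), also known as AUF1, binds AU-rich elements and is encoded on chromosome 4 (82352498 to 82373991). It was at 218.58 and 217.49 TPM in control against 239.2 and 236.35 TPM in KO+OE. The groups did not overlap, and KO+OE was higher by 9.05% on average. The log2 fold change was 0.12 with a 95% interval of 0.05 to 0.20 (limma, unadjusted p = 0.00985, Benjamini-Hochberg adjusted p = 0.928). The related HNRNPDL, at 21.64 and 22.96 TPM in control against 23.51 and 23.3 TPM in KO+OE, also lay higher in both KO+OE libraries, with an interval of -0.10 to 0.23 that included 0. HNRNPD was 9.47 to 10.2 times as high as HNRNPDL.

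HNRNPAB (ENSG00000197451), a close relative of HNRNPD on chromosome 5 (178204533 to 178211163), showed the opposite order. It was at 325.85 and 315.99 TPM in control against 294.75 and 288.77 TPM in KO+OE, so that both KO+OE libraries were below both control libraries. The average difference was -9.09%, and the log2 fold change was -0.14 with an interval of -0.22 to -0.05 (limma, unadjusted p = 0.00883, Benjamini-Hochberg adjusted p = 0.928). Without control replicate 1 the unadjusted p of HNRNPAB was no longer under 0.05.

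SRSF3 (ENSG00000112081), a small SR protein that couples splicing with export and 3′ end processing, lies on chromosome 6 (36594362 to 36605600). It was at 97.52 and 97.64 TPM in control cells, with 88.86 and 83.25 TPM in KO+OE cells. Both KO+OE libraries lay below both control libraries, with a log2 fold change of -0.18 and an interval of -0.30 to -0.06 (limma, unadjusted p = 0.0132, Benjamini-Hochberg adjusted p = 0.928). With either control library left out its unadjusted p was above 0.05. SRSF10 (ENSG00000188529), on chromosome 1 (23964347 to 23980327), represses general splicing when dephosphorylated. SRSF10 was at 5.66 and 6.11 TPM in control against 4.64 and 4.34 TPM in KO+OE, again without overlap. Its log2 fold change was -0.33 with an interval of -0.62 to -0.04 (limma, unadjusted p = 0.0340, Benjamini-Hochberg adjusted p = 0.928), and its unadjusted p was over 0.05 with any 1 library left out. The signs of these 5 genes held in every such fit. Without the mean-dependent prior the unadjusted p of HNRNPD, HNRNPAB and SRSF3 was over 0.05.

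**Figure D2:**
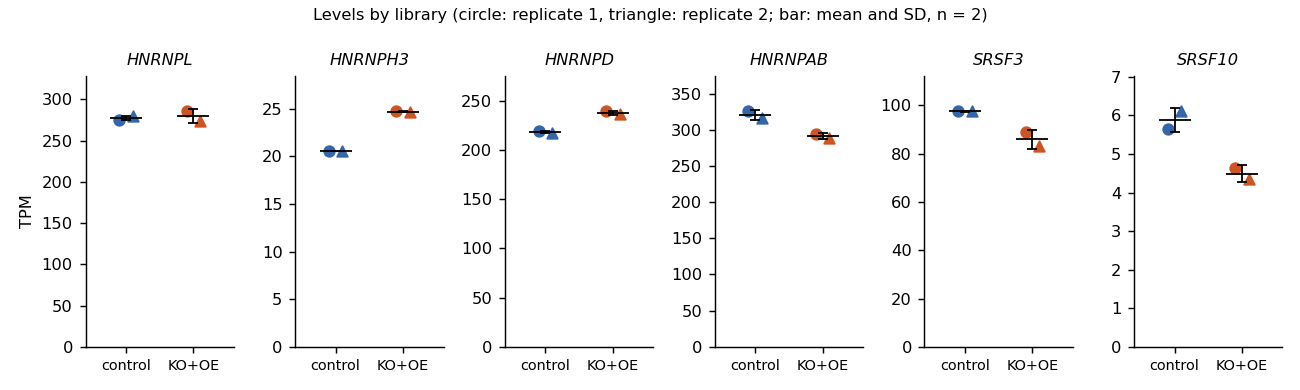
TPM of HNRNPL and of the 5 members with an unadjusted p under 0.05 in each library (circles, replicate 1; triangles, replicate 2), with the mean and SD of each group (n = 2) and axes that start at 0. HNRNPL overlapped between the groups, HNRNPH3 and HNRNPD were higher in both KO+OE libraries, and HNRNPAB, SRSF3 and SRSF10 were lower in both.

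Counting members whose groups did not overlap gave shares near those of all genes. Both KO+OE libraries were above both control libraries for 8 of 45 members (17.8%, beside 14.5% of all genes), namely HNRNPA1, HNRNPDL, HNRNPD, HNRNPH3, HNRNPR, SRSF5, TRA2A and QKI. Both were below for 10 of 45 (22.2%, beside 19.6% of all genes), namely HNRNPA3, HNRNPAB, HNRNPH2, HNRNPUL2, SRSF1, SRSF3, SRSF8, SRSF10, PTBP1 and CELF5. For 40 of 45 members (88.9%) the 95% interval lay within 1.5-fold in either direction, beside 71.0% of all genes. That held for 18 of 21 hnRNP symbols, 10 of 11 SRSF genes and 12 of 13 genes of the other families. The 5 exceptions were HNRNPUL2, HNRNPR, HNRNPH2, SRSF10 and QKI, all with means under 20 TPM. The shares of members and of all genes are not matched for level. The median level was 26.45 TPM over the members and 7.77 TPM over all genes.

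**Figure D3:**
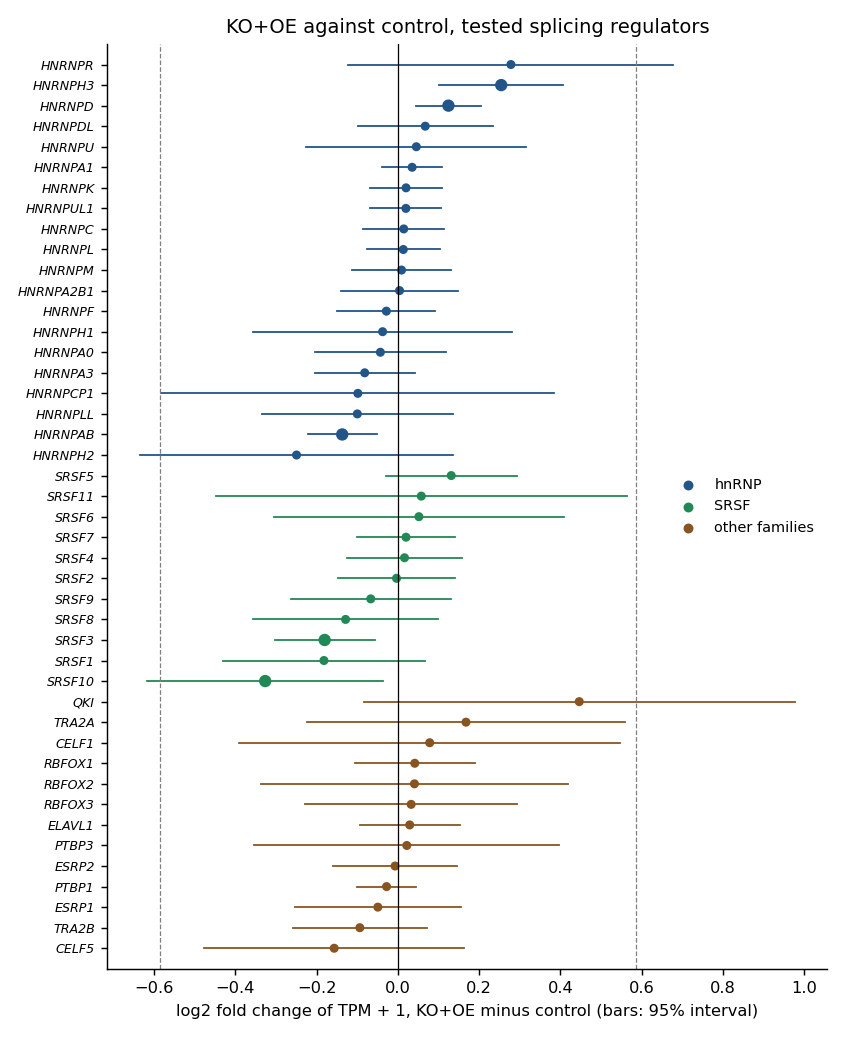
Log2 fold change of TPM + 1, KO+OE over control, for 44 of the 45 tested members with 95% intervals (limma); large points mark an unadjusted p under 0.05 and dashed lines 1.5-fold. HNRNPUL2, listed at 0 in 1 library, is left out; most intervals cross 0 and lie between the dashed lines.

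The width of the intervals followed the level. The 9 members at 100 TPM or more had a median half-width of 0.087 on the log2 scale and the 20 members from 20 to 100 TPM one of 0.15, against 0.36 for the 9 members from 5 to 20 TPM and 0.39 for the 7 from 1 to 5 TPM. The median spread between the libraries of a group, on the log2 scale, was 0.064 in control and 0.062 in KO+OE for members from 20 to 100 TPM, and 0.070 and 0.067 for all genes at that level. From 5 to 20 TPM it was 0.143 in control and 0.233 in KO+OE for members, against 0.120 and 0.116 for all genes. At 100 TPM or more it was 0.037 and 0.018 for members, against 0.038 and 0.043 for all genes. From 1 to 5 TPM the values were 0.167 and 0.183 for members, and 0.189 and 0.183 for all genes. In KO+OE the members thus spread more than all genes from 5 to 20 TPM and less at 100 TPM or more, over 9 members each. A difference of the size seen for HNRNPD would therefore lie inside the interval of a typical member under 20 TPM.

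HNRNPUL2 and HNRNPH2 were low and lie inside other transcription units. HNRNPUL2 (chromosome 11, 62712630 to 62727457, minus strand) was listed at 5.15 and 2.21 TPM in control against 1.76 and 0 TPM in KO+OE, and its fitted fold change is not given because of the value at 0. The read-through gene HNRNPUL2-BSCL2 (62690262 to 62727384), which covers nearly all of HNRNPUL2, was at 21.45 and 27.06 TPM in control against 28.22 and 27.57 TPM in KO+OE, so it lay in the other order. Its partner BSCL2 was at 99.39 and 99.26 TPM in control cells, with 98.92 and 96.88 TPM in KO+OE cells. Whether reads were assigned to 1 or the other of these overlapping genes cannot be read from the table. HNRNPH2 (chromosome X, 101408222 to 101414133) was at 2.45 and 2.73 TPM in control against 1.91 and 2.13 TPM in KO+OE. The overlapping RPL36A-HNRNPH2 was listed far higher and varied widely within KO+OE, at 54.36 and 16.94 TPM, with 37.16 and 46.42 TPM in control. Values of HNRNPUL2 and HNRNPH2 are uncertain for this reason.

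HNRNPR, a relative of the RNA-binding protein SYNCRIP, varied within KO+OE more than the difference between the groups. It was at 6.51 and 5.8 TPM in control against 8.83 and 6.64 TPM in KO+OE. Both KO+OE values were higher, and the log2 fold change of 0.28 had an interval of -0.12 to 0.68. Dropping KO+OE replicate 1 gave 0.10 for HNRNPR and dropping KO+OE replicate 2 gave 0.46.

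The SRSF genes summed to 517 and 506 TPM in control and to 497 and 490 TPM in KO+OE. The sums did not overlap, and with 2 libraries a group an exact two-sided permutation test cannot give a p below 0.333. The difference does not describe the family as a whole, since 5 of 11 tested SRSF genes had a log2 fold change above 0. Abundant genes weigh most in a sum. The mean of SRSF3 was 97.6 TPM in control against 86.1 TPM in KO+OE, and that of SRSF9, whose groups overlapped, 132 against 126 TPM. The hnRNP sums were 3036 and 3097 TPM in control and 3111 and 3062 TPM in KO+OE, and these overlapped. Over the 11 tested SRSF genes the median log2 fold change was -0.0032, with 5 above 0 and 6 below, moving to -0.087 without KO+OE replicate 1 and to -0.081 without control replicate 2. Over the 21 hnRNP symbols it was 0.0091, with 12 above and 9 below.

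SRSF9, which binds purine-rich enhancers, was the most abundant SRSF gene. It was at 141.48 and 122.56 TPM in control against 128.62 and 122.82 TPM in KO+OE, and control replicate 1 stood above the other libraries. SRSF2, a nuclear SR protein that activates exon inclusion, was at 74.29 and 75.23 TPM in control cells, with 71.5 and 77.81 TPM in KO+OE cells, where the KO+OE values enclosed the control values. SRSF7, a shuttling SR protein with a zinc knuckle, was at 61.58 and 62.92 TPM in control against 61.95 and 64.34 TPM in KO+OE. The groups of SRSF2, SRSF7 and SRSF9 overlapped. SRSF4 was at 43.57 and 43.52 TPM in control against 42.7 and 45.45 TPM in KO+OE, also with overlap. SRSF5 was at 38.71 and 41.97 TPM in control against 45.18 and 43.33 TPM in KO+OE. Both KO+OE values of SRSF5 were higher, with a log2 fold change of 0.13 and an interval of -0.03 to 0.29. SRSF1, the founding SR protein, was at 27.54 and 28.73 TPM in control cells, with 26.93 and 22.61 TPM in KO+OE cells, both below control, with an interval of -0.43 to 0.07. SRSF11, at 5.57 and 7.41 TPM in control against 7.92 and 5.71 TPM in KO+OE, varied within each group over the same range.

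In the PTBP, TRA2 and ELAVL families, 1 paralogue stood far above the others. PTBP1 was at 357.75 and 354.21 TPM in control against 349.41 and 348.93 TPM in KO+OE, both KO+OE values slightly below control, with a log2 fold change of -0.03 and an interval of -0.10 to 0.04. PTBP2 was at 1.27 and 1.13 TPM in control against 0.68 and 0.88 TPM in KO+OE. Its mean of 0.99 TPM was just under the filter, and PTBP1 stood 282 to 514 times as high. Tested with no filter, PTBP2 had a log2 fold change of -0.31 with an interval of -0.76 to 0.15 (limma, Benjamini-Hochberg adjusted p = 0.873). PTBP3, best known from blood cells, was at 2.34 and 2.71 TPM in control cells, with 2.64 and 2.51 TPM in KO+OE cells, with overlap, and PTBP1 was 131 to 153 times as high.

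The TRA2 pair was as unequal in order but less in size. TRA2B was at 52.34 and 49.15 TPM in control against 45.62 and 49.4 TPM in KO+OE, and TRA2A at 2.11 and 2.19 TPM in control against 2.32 and 2.77 TPM in KO+OE. TRA2B stood 17.8 to 24.8 times as high as TRA2A, with the 2 lower ratios in KO+OE. ELAVL1, the ubiquitous HuR, which stabilises AU-rich mRNAs, was at 79.4 and 74.84 TPM in control against 78.72 and 78.64 TPM in KO+OE, with overlap. The neuronal ELAVL genes were low: ELAVL3 was at 0.64 and 0.75 TPM in control cells, with 0.26 and 0.49 TPM in KO+OE cells, and ELAVL2 and ELAVL4 did not exceed 0.34 TPM in any library. ELAVL1 was 99.8 to 303 times as high as ELAVL3.

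The ESRP and RBFOX families held no such single leader. ESRP1, the epithelial splicing regulator, was at 23.41 and 26.29 TPM in control against 24.51 and 23.39 TPM in KO+OE, and ESRP2 at 23.82 and 24.51 TPM in control against 23.89 and 24.2 TPM in KO+OE. Their ratio was between 0.967 and 1.07 in the 4 libraries, and both overlapped between groups. The epithelial markers EPCAM, CDH1 and CLDN6 summed to 786 to 836 TPM, and CLDN6 made up most of this. Their means were 36.5 TPM for EPCAM, 34.4 TPM for CDH1 and 743 TPM for CLDN6. RBFOX1, known from neurons and muscle, was at 32.23 and 31.96 TPM in control against 33.94 and 32.21 TPM in KO+OE. RBFOX2, the widely expressed paralogue, was at 14.2 and 17.98 TPM in control cells, with 18.13 and 14.96 TPM in KO+OE cells, and RBFOX3, which encodes the neuronal antigen NeuN, at 15.73 and 16.46 TPM in control against 17.95 and 15.13 TPM in KO+OE. RBFOX1 was therefore 1.78 to 2.27 times as high as RBFOX2 and 1.89 to 2.13 times as high as RBFOX3. Of the 5 neuronal markers, DCX was at 0.03 to 0.06 TPM, SNAP25 at 0.05 to 0.16 TPM, STMN2 at 0.27 to 1.14 TPM, MAP2 at 1.34 to 2.55 TPM and SYP at 2.99 to 4.06 TPM. All 5 were below RBFOX1, RBFOX2 and RBFOX3 in every library. The muscle markers averaged 0.035 TPM for MYOD1, 5.62 TPM for DES and 6.6 TPM for TNNT2.

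**Figure D4:**
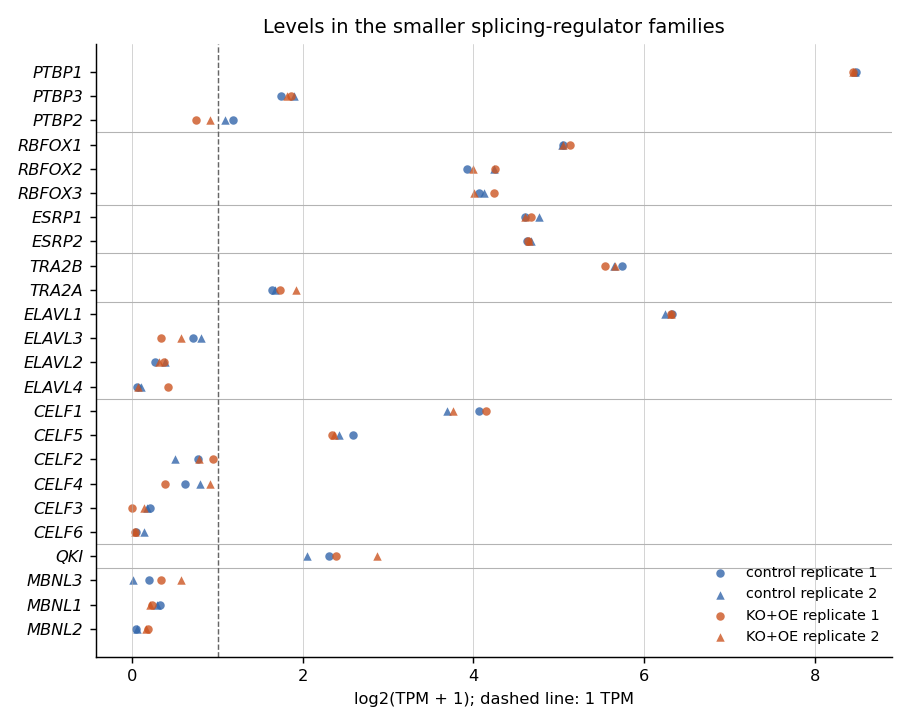
Levels as log2(TPM + 1), with a dashed line at 1 TPM, of the genes of the PTBP, TRA2, ELAVL, ESRP, RBFOX, CELF, MBNL and QKI families in each library (circles, replicate 1; triangles, replicate 2; blue, control; orange, KO+OE). PTBP1 and ELAVL1 lie far above their paralogues, ESRP1 and ESRP2 lie together near 24 TPM, and the 3 MBNL genes lie under 0.5 TPM.

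CELF1, which binds GU-rich elements, led its family at 15.67 and 11.93 TPM in control against 16.72 and 12.56 TPM in KO+OE. Replicate 1 was the higher in both groups. CELF5 was at 5.03 and 4.37 TPM in control against 4.07 and 4.14 TPM in KO+OE, both below control, with a log2 fold change of -0.16 and an interval of -0.48 to 0.16. CELF2, CELF3, CELF4 and CELF6 did not exceed 0.93 TPM in any library.

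QKI, which binds ACUAA motifs and sets exon use in glia and muscle, had the highest fitted log2 fold change of the members, 0.45. It was at 3.96 and 3.14 TPM in control cells, with 4.23 and 6.29 TPM in KO+OE cells. Both KO+OE values were above control, yet the KO+OE libraries differed from each other more than KO+OE replicate 1 did from control. The interval ran from -0.08 to 0.98 (limma, Benjamini-Hochberg adjusted p = 0.931), and dropping KO+OE replicate 2 gave 0.21 where dropping KO+OE replicate 1 gave 0.69.

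The MBNL genes were low in all libraries. MBNL1 was at 0.25 and 0.22 TPM in control against 0.17 and 0.16 TPM in KO+OE, and MBNL3 at 0.15 and 0.01 TPM in control against 0.26 and 0.49 TPM in KO+OE. MBNL2 was at 0.03 and 0.04 TPM in control against 0.14 and 0.12 TPM in KO+OE, without overlap. None of the MBNL genes reached the filter of 1 TPM, and the number of reads behind differences at this level is unknown. With no filter, MBNL2 had an unadjusted p of 0.0386 and a Benjamini-Hochberg adjusted p of 0.873 in limma.

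Level went with transcript length and GC content among the members in the same direction as among all genes. TPM is itself scaled to transcript length, so its correlation with length is not independent of that scaling. Across the 45 tested members, Spearman's rho of TPM with canonical transcript GC content was 0.209 to 0.248 in the 4 libraries, and of TPM with transcript length -0.286 to -0.251. Across 12147 genes tested with a value, rho was 0.264 to 0.277 for GC content and -0.194 to -0.186 for length. Across the 10781 protein-coding genes among them, it was 0.300 to 0.312 for GC content and -0.334 to -0.329 for length. Among the 11 SRSF genes rho was 0.536 to 0.564 for GC content and -0.709 to -0.645 for length. These are correlations across genes that share their libraries, and genes are not independent replicates.

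The other genes of the pathway were taken from lists of 65 symbols in 66 rows, of which 60 rows were tested. At an adjusted p under 0.05 (limma, Benjamini-Hochberg) 0 of 60 were called, beside 0.00812% of all genes tested, and at an unadjusted p under 0.05 also 0 of 60, beside 5.33% of all genes. The median log2 fold change was -0.01, with 26 above 0 and 34 below. Among kinases, nuclear importers and methyltransferases of SR and hnRNP proteins, 10 of 12 were tested. PRMT1, the main arginine methyltransferase of hnRNP proteins, was at 801.32 and 766.37 TPM in control cells, with 748.1 and 757.65 TPM in KO+OE cells, both below control. PRMT5 was at 182.4 and 109.54 TPM in control against 111.34 and 103.68 TPM in KO+OE. Control replicate 1 stood far above the other libraries, and the log2 fold change of PRMT5 was -0.03 without it and -0.39 with it. All 24 rows of RNA-binding proteins of the hnRNP group with other symbols were tested. PCBP2, which binds cytidine-rich RNA, was at 634.64 and 645.83 TPM in control against 649.67 and 649.04 TPM in KO+OE, and PCBP1 at 401.09 and 400.89 TPM in control against 404.92 and 386.85 TPM in KO+OE. Of other SR-like and splicing regulators 26 of 30 were tested. RNPS1, a part of the exon junction machinery, was at 327.82 and 322.3 TPM in control cells, with 333.57 and 325.3 TPM in KO+OE cells, and SRRM2, a core of nuclear speckles, at 216.81 and 243.06 TPM in control against 225.52 and 237.73 TPM in KO+OE. PCBP1, RNPS1 and SRRM2 overlapped between the groups, and PCBP2 was slightly higher in both KO+OE libraries.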

How the data were processed

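RNA-seq of poly(A) RNA was available for 4 H9 libraries, 2 of control and 2 of KO+OE, grouped by the sample titles. The authors deposited 1 table, with 60671 Ensembl genes as rows and the 4 libraries as columns, without a unit in its header. The deposited values are read as TPM because each column holds decimals and sums to 986853 to 987078. The submitters' processing notes name HISAT2, featureCounts, Subread, DESeq2 and hg38. The annotation version, the strand setting and the treatment of reads matching several places are not given in the sources used here. No column beyond these 4 held values of a sample (0 left unused). TPM keeps no counts, so depth is unknown and count tests were not used.

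Values were analysed as log2(TPM + 1), a scale on which changes of low genes are understated. The 12319 genes whose mean reached 1 TPM were compared with limma 3.58.1 (R 4.3.3) in a two-sided test that had group alone as a term and a mean-dependent prior, after the step had been tested on simulated data. Benjamini-Hochberg adjustment covered the 12319 genes. The members and lists were chosen with earlier results of these data known. By rule the text names NUDT21, HNRNPL, the 6 most abundant hnRNP genes, the 6 most abundant SRSF genes, all tested members of the other families, members with an unadjusted p under 0.05, the 5 with the widest spread within a group, and the 2 most abundant genes of each pathway list. Further members (among them HNRNPDL, HNRNPLL, HNRNPA3, SRSF1 and SRSF8) and the overlapping genes were chosen for naming once their values were known. Coding identity, GC content and length came from GENCODE release 44 on GRCh37, matched by Ensembl identifier, and positions from RefSeq on GRCh38.p14. The sequences themselves are not reported here. The 13 alternatives were 2 other pseudocounts (0.1 and 5), a filter at 5 TPM and none at all, 3 other scalings, a prior not dependent on the mean, a block by replicate number, and each library left out in turn.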

Additional observations from a re-analysis of the deposited data

How the results depend on the processing

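No member reached an adjusted p under 0.05 in limma under any of the 13 alternatives. The number of members at an unadjusted p under 0.05, 5 as reported, was 3 without the mean-dependent prior (HNRNPH2, HNRNPH3 and SRSF10) and 2 to 7 with 1 library left out, lowest without control replicate 1 and highest without KO+OE replicate 1. With 1 library left out, a lone library is assumed to vary like the other group. The number of pathway partners at that p was 0 to 2. Across genes, the deviations of same-numbered control and KO+OE libraries had a correlation of -0.049. A correlation over all genes cannot show that pairing is absent, because genes at low levels vary most. The labels do not say whether same-numbered libraries were prepared together. With the replicate number as a block 5 members passed, 4 of them the same, with HNRNPUL2 in place of SRSF10. Median log2 fold changes with 1 library left out were -0.026 to 0.014 over members, -0.016 to 0.034 over hnRNP symbols, -0.087 to -0.012 over SRSF genes, -0.029 to 0.048 over the other families and -0.031 to 0.014 over partners. The sign of 22 of 45 members turned with 1 library left out, and that of 2 (ESRP2 and SRSF2) under another scaling: with median ratios, quantile normalization and scaling without mitochondrial genes, ESRP2 was at 0.0055, 0.0010 and 0.0071 and SRSF2 at 0.0094, 0.016 and 0.011. The cause was not tested. For named genes whose sign turned with 1 library left out, log2 fold changes ran from -0.012 to 0.066 for NUDT21, -0.016 to 0.043 for HNRNPL, -0.11 to 0.27 for CELF1, -0.013 to 0.071 for ELAVL1, -0.13 to 0.031 for ESRP1, -0.027 to 0.013 for ESRP2, -0.034 to 0.063 for HNRNPC, -0.0011 to 0.041 for HNRNPK, -0.054 to 0.098 for PTBP3, -0.12 to 0.20 for RBFOX2, -0.084 to 0.15 for RBFOX3, -0.15 to 0.26 for SRSF11, -0.063 to 0.057 for SRSF2, -0.028 to 0.060 for SRSF4, -0.0068 to 0.047 for SRSF7, -0.17 to 0.036 for SRSF9, -0.052 to 0.014 for PCBP1 and -0.070 to 0.094 for SRRM2. With no counts in the table, the number of reads behind low values such as those of MBNL1, MBNL2, MBNL3 and PTBP2 is unknown.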
